A study of Mus musculus with 42 samples.

Results

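The genes of the proteasome were followed in 4 hypothalamic nuclei of adult mice. Members were the protein-coding genes whose symbol begins with Psma, Psmb, Psmc, Psmd, Psme, Psmf or Psmg and a digit in GENCODE release M21. The rule gave 50 of the 37907 genes in the table, and 3 pseudogenes with matching symbols were left out. The deposited values hold an added count, so a short gene without reads can pass the filter on low values (1 RPKM or more in at least 4 libraries). All 50 members passed it. One of them, Psmc3ip, encodes a recombination factor named for its binding to Psmc3 and is not a subunit.

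All libraries came from wild-type male C57/BL6 mice that either ate ad libitum (fed) or had no food for 24 hours (fasted). Laser-capture microdissection of brain cryosections gave the paraventricular (PVN) and arcuate (ARC) nuclei and the ventromedial (VMH) and dorsomedial (DMH) hypothalamus, and their RNA was amplified before sequencing. The ARC gave 5 libraries in each state, the VMH 6 in each, the DMH 5 fed and 4 fasted, and the PVN 6 fed and 5 fasted. The design asks which transcripts respond to food deprivation in each nucleus, and how the nuclei differ. The nuclei were taken from the same brains, but the labels do not tie libraries to mice, so all libraries were treated as independent.

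The proteasome breaks down proteins that carry a chain of ubiquitin. A barrel of alpha and beta rings (the 20S core) holds the proteolytic sites, and the 19S particle, made of a base with ATPases and a lid that removes ubiquitin, recognizes and unfolds substrates. Activators such as PA28 (Psme1 and Psme2, induced by interferon) can take the place of the 19S particle, and the inducible subunits Psmb8, Psmb9 and Psmb10 replace the catalytic subunits Psmb5, Psmb6 and Psmb7 to form the immunoproteasome, known for making peptides for class I antigen presentation. In skeletal muscle, fasting is known to raise the transcripts of subunits and of ubiquitin ligases.

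Levels are RPKM (reads scaled to gene length in kilobases and to library depth), the unit deposited. The reads behind the values were estimated at 1.33 to 13.25 M for each library (mean 4.57 M). This is not the number sequenced, for which the study reports a higher average. Depth did not differ between fed and fasted libraries beyond their spread in the ARC, VMH and PVN (two-sided exact permutation p = 0.5397, 0.5108 and 0.8268), while fasted DMH libraries were deeper than fed ones (7.38 against 3.91 M reads, exact permutation p = 0.0476), so depth and fasting cannot be told apart there. Capture was done in 3 batches, the batch of each library was inferred from its values, and no fasted DMH library fell in batch 1. All 10 markers of the nuclei differed between them in the limma test, with Pomc highest in the ARC, Nr5a1 in the VMH, Ppp1r17 in the DMH and Oxt in the PVN when each was set against the other 3 (log2 differences of 5.38, 3.85, 1.99 and 7.53). In bulk tissue, fewer cells of a type and less RNA per cell cannot be told apart.

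The 31 members that encode constitutive subunits of the core and 19S particle were all expressed in every nucleus. Their mean levels ran from 8.48 RPKM (Psmd13) to 154.9 RPKM (Psmc5), with a median of 34.8 RPKM. Subunits without the prefix, such as Adrm1 and Sem1, are not among them. Although the particle holds its subunits in fixed numbers, their transcripts spanned this range within the same libraries. Psmc5, a 19S ATPase, was highest, followed by the catalytic subunit Psmb7 (127.1 RPKM), the alpha subunits Psma2 (109.4 RPKM) and Psma6 (95.4 RPKM) and the beta subunit Psmb4 (94.8 RPKM). At the low end of each role stood Psma1 among the constitutive alpha genes (23.8 RPKM), Psmb3 among the beta genes (12.3 RPKM), Psmc4 among the ATPases (27.2 RPKM) and the ubiquitin receptor Psmd4 among the other base genes (18.6 RPKM, with Psmd1 highest at 49.7 RPKM). In the lid, Psmd7 was highest at 76.8 RPKM and Psmd13 lowest. Assembly chaperones were lower, from 4.74 RPKM (Psmd9) to 17.0 RPKM (Psmd5). The order between genes depends on the exon length by which their reads are divided. Estimated reads in the median library were 960 for Psmc5 and 1885 for Psmb7. They were 143.1 for Psmd9 and 86.5 for Psmg1, a chaperone at 16.2 RPKM. Among the activators Psme1 led with 71.7 RPKM, followed by Psme3 (43.1 RPKM), Psme2 (14.9 RPKM) and Psme4 (8.79 RPKM), and Psmf1, an inhibitor of the core, averaged 6.45 RPKM. Psmc3ip averaged 3.57 RPKM.

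Among the inducible and tissue-restricted beta genes Psmb10 averaged 15.1 RPKM, above the constitutive Psmb3 only after scaling to length. The median library held an estimated 110.1 reads of Psmb10 and 111.7 of Psmb3, whose exon lengths were 1705 and 2300 bases. The other genes were low: Psmb8 1.63 RPKM, Psmb11 (known from the thymic cortex) 1.51 RPKM and Psmb9 0.863 RPKM. Psmb9 sat at the value taken to mean no reads in 8 of 42 libraries. Psma8, known from the testis, did so in 27 libraries. Psme2b, a copy of Psme2, did so in 14, and 69.3% of its 50-base stretches recur in Psme2 or another transcript. The median library held 11.5 reads of Psmb8 and 4.96 of Psmb9, against 1584 of Psmb1.

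**Figure D1:**
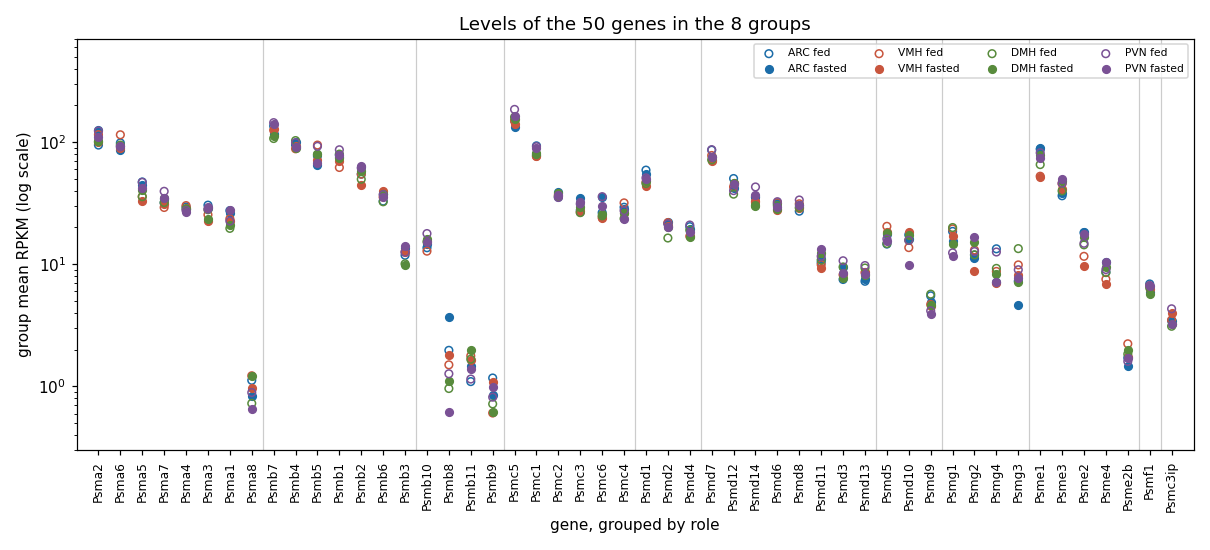
Group mean level of each of the 50 genes in RPKM (log axis), with open circles for fed and filled circles for fasted groups and 1 color per nucleus; vertical lines part the genes by role. Levels run from Psmc5 at 154.9 RPKM to Psmb9 at 0.863 RPKM over all libraries, and for most genes the 8 group means lie close together.

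After 24 hours without food, no member passed the threshold in any nucleus (0 of 50 in each, limma with Benjamini-Hochberg adjusted p under 0.1 over 33579 genes). Few genes of any kind passed: 0.0566% (ARC), 0.131% (VMH), 0.0238% (DMH) and 0.0715% (PVN). At an unadjusted p under 0.05 there were 3 members (ARC), 1 (VMH), 0 (DMH) and 3 (PVN), where 7.50%, 7.31%, 6.48% and 5.53% of all genes reached that level. The median change of the members (fasted minus fed, log2 of RPKM + 1) was -0.02 (ARC), -0.05 (VMH), 0.06 (DMH) and -0.07 (PVN), and that of all genes was 0 in each nucleus. Genes with almost no reads are counted among all genes in these shares and medians.

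The intervals limit how large a shift could have gone unseen. For all 31 constitutive core and 19S subunits the 95% interval of the fasting change lay within 1 log2 unit in every nucleus, and the widest bounds were -0.74 (PVN) and 0.80 (ARC). Among all 50 members this held for 47 (ARC), 46 (VMH), 47 (DMH) and 45 (PVN). An interval within 0.5 log2 units was reached by 18, 32, 22 and 23 members (36%, 64%, 44% and 46%). Over all genes tested the shares were 57.4%, 60.8%, 55.7% and 60.5%. For the other members a shift of 0.5 log2 units was not excluded. The fed and fasted values were separate for 1 member in 1 nucleus, Psmb4 in the DMH, where 1.15% of all genes were separate in either direction (ARC 0.742%, VMH 0.277%, PVN 0.402%). Its fed libraries read 118.2, 98.8, 97.8, 99.5 and 100.4 RPKM and its fasted libraries 89.4, 89.0, 91.1 and 85.9 RPKM. The change was -0.21 ± 0.14 (SE) with a limma adjusted p of 1.

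**Figure D2:**
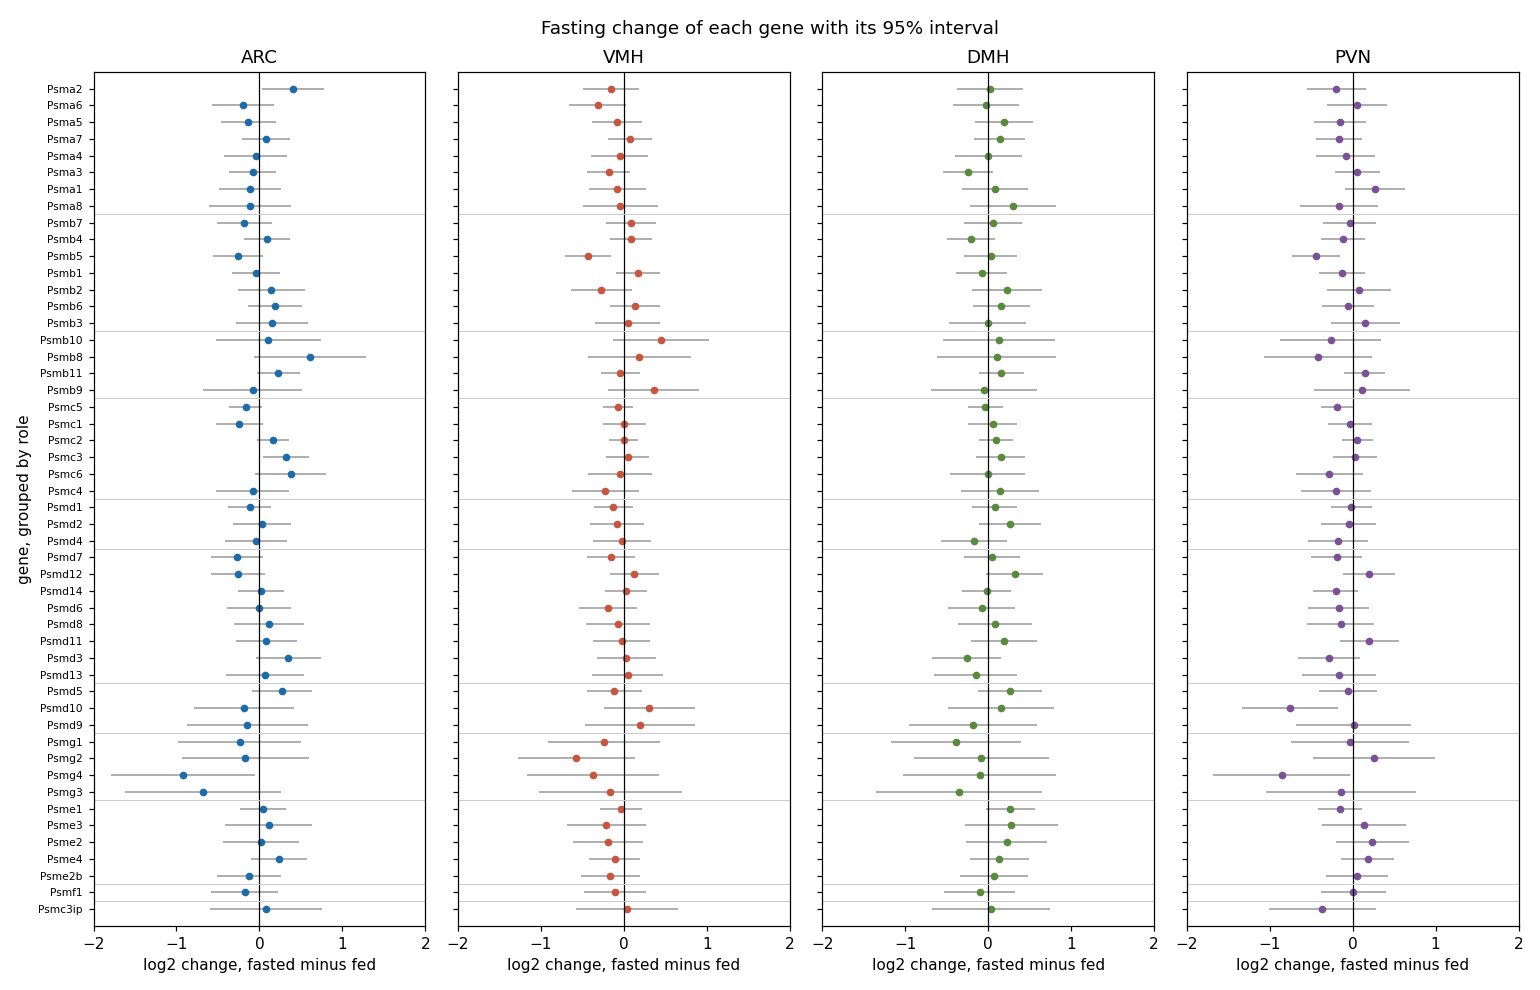
Fasting change of each gene (log2 of RPKM + 1, fasted minus fed) in the 4 nuclei, with its 95% interval as a gray line and horizontal lines between roles. Changes of the constitutive subunits sit near 0, and the widest intervals belong to the Psmg genes.

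Psmb5, the catalytic subunit with chymotrypsin-like activity, had the smallest unadjusted p of the members in the VMH and in the PVN. In the VMH the fed libraries ranged from 85.6 to 105.4 RPKM with a median of 94.5, and the fasted libraries from 50.1 to 99.2 RPKM with a median of 68.2. Of the 6 fasted VMH libraries, 5 lay below every fed one, and the library labelled replicate 6 lay among the fed ones. The change was -0.43 ± 0.14 (SE, limma adjusted p = 0.346).

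In the PVN the fed libraries of Psmb5 ranged from 72.0 to 114.7 RPKM with a median of 95.3, and the fasted libraries read 64.7, 55.6, 86.0, 73.0 and 58.4 RPKM. The groups overlapped, and the change was -0.45 ± 0.14 (SE, limma adjusted p = 0.542). In the ARC the fed libraries read 73.2, 66.5, 84.1, 94.0 and 67.6 RPKM and the fasted ones 69.9, 53.1, 52.4, 71.9 and 74.8 RPKM, a change of -0.26 ± 0.15 (SE, limma adjusted p = 0.771). In the DMH the means were 79.3 ± 14.8 RPKM (SD, n = 5) and 80.6 ± 11.98 RPKM (n = 4). The fasting change of Psmb5 did not pass the test of a difference between nuclei (interaction, limma adjusted p = 1). Within the inferred batches the change was -0.72, -0.57 and -0.01 in the VMH and -0.43, -0.57 and -0.37 in the PVN. Of the 50-base stretches of Psmb5, 54.1% recur in transcripts of Gm3375, Mir686 or the pseudogene Psmb5-ps, so its level is uncertain where reads could be split. Psmb5-ps itself sat at its no-read value in 40 of 42 libraries. Gm3375 has no values in these data, so reads shared with it cannot be judged.

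Psmg1 to Psmg4 encode the chaperones that build the alpha ring, and their within-group SD of 0.58 to 0.74 log2 units was wider than that of every other member. None of their 16 fasting changes passed the threshold. The median over the 4 genes was -0.46 (ARC), -0.31 (VMH), -0.23 (DMH) and -0.09 (PVN). Psmg4 had the lowest change of the members in the ARC and in the PVN. Its fed ARC libraries read 14.7, 20.04, 5.99, 12.3 and 13.8 RPKM and its fasted ones 8.18, 2.66, 3.60, 6.42 and 15.1 RPKM, overlapping, with a change of -0.93 ± 0.43 (SE, limma adjusted p = 0.647). In the PVN its mean was 12.6 ± 4.93 RPKM (SD, n = 6) fed and 7.10 ± 4.66 RPKM (n = 5) fasted, a change of -0.86 ± 0.41 (SE, limma adjusted p = 0.876). Only 18.6 reads of Psmg4 lay behind its value in the median library, and an estimated 0.678 in the library with the fewest. From its length, a library without reads would read an estimated 1.97 RPKM. Fasted ARC replicate 2 (2.66 RPKM) and fasted PVN replicate 2 (2.65 RPKM) lay near that value, so both changes rest partly on values near the floor. The within-group SD was 0.68 log2 units for Psmg4 and 0.74 for Psmg3, the highest of the members with a mean of at least 5 RPKM. Over the 43 such members the median SD was 0.29, against 0.24 over 14467 genes, and the ATPase Psmc2 was steadiest (0.15).

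The 3 base chaperones Psmd5, Psmd9 and Psmd10 also did not pass. Psmd10 (gankyrin) read 9.58, 3.68, 7.98, 9.56 and 18.5 RPKM in the fasted PVN, while its fed PVN libraries ranged from 12.5 to 19.7 RPKM with a median of 15.3. Of these 5 fasted libraries, 4 lay below all fed ones, and the change was -0.75 ± 0.28 (SE, limma adjusted p = 0.744), or -0.48 without fasted PVN replicate 2. In the ARC, the 2 members that were higher in fasted libraries at an unadjusted p under 0.05 were the ATPase Psmc3 (27.6 ± 4.42 to 34.8 ± 6.19 RPKM, SD, n = 5 each, change 0.32 ± 0.14, SE, limma adjusted p = 0.647) and the alpha subunit Psma2 (94.6 ± 24.8 to 126.2 ± 36.8 RPKM, change 0.41 ± 0.18, SE, limma adjusted p = 0.647). For Psma2 the 3 inferred batches gave changes of 1.56, -0.08 and 0.32, and its change was 0.26 without fasted ARC replicate 1, at 188.0 RPKM.

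The next members by unadjusted p in the VMH were the alpha subunit Psma6 (-0.32 ± 0.17, SE, limma adjusted p = 0.617, and -0.18 without fed VMH replicate 1) and Psmg2 (-0.57 ± 0.35, limma adjusted p = 0.682). In the DMH the 3 smallest unadjusted p-values belonged to the lid gene Psmd12 (0.32 ± 0.17, SE, limma adjusted p = 0.852, and 0.18 without fed DMH replicate 3), Psme1 (0.26 ± 0.14, limma adjusted p = 0.864) and Psma3 (-0.24 ± 0.15, limma adjusted p = 0.962, and -0.13 without fed DMH replicate 1).

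Signs across nuclei were mixed. Of the members, 1 (Psmc3) had a positive change in all 4 nuclei and 6 (Psmc5, Psmd4, Psmd6, Psmg1, Psmg3 and Psmg4) a negative one, where 6.10% and 5.57% of all genes did so. No member passed the test of whether the fasting change differed between nuclei (0 of 50, background 0.00596%), and the smallest p belonged to Psmd10 (limma adjusted p = 1).

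**Figure D3:**
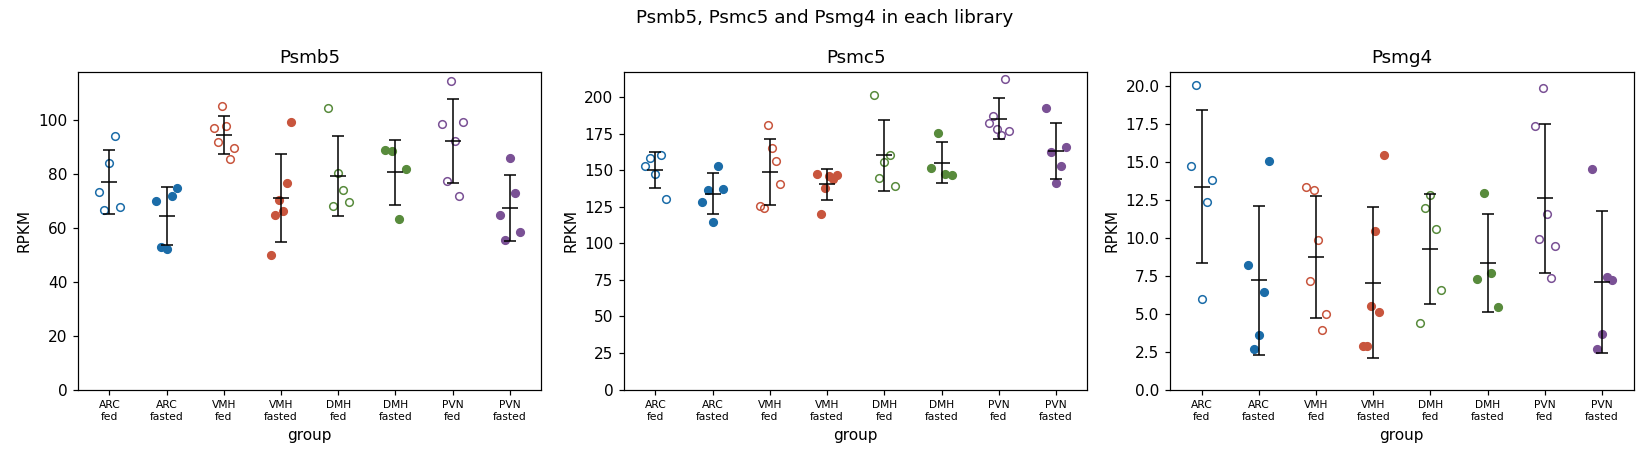
RPKM of Psmb5, Psmc5 and Psmg4 in each library by group (open circles fed, filled circles fasted), with the mean and SD as black bars. Fasted Psmb5 libraries of the VMH and PVN sit mostly below the fed ones, Psmc5 is highest in the fed PVN, and Psmg4 scatters widely in all groups.

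The nuclei themselves differed for a few members. Among fed libraries 6 of 50 members passed the test across the 4 nuclei, 12% against a background of 12.4%, and among fasted libraries 4 did, 8% against 11.9%. Of the 43 members with a mean of at least 5 RPKM, 6 and 5 passed when only genes at that level were fitted, against 22.04% and 21.21% of those genes. Psme1 was the only member past the threshold in both states (1 of 50, background 7.66%).

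Psme1 encodes the alpha subunit of PA28, the ring that opens the 20S core without ATP. It lies on chromosome 14 (GRCm38, 55578123 to 55581529, plus strand), and Psme2, the beta subunit, lies on the minus strand (55587441 to 55591113), with 5911 bases between the ends of both genes. Fed Psme1 libraries read 101.3, 86.2, 91.1, 87.0 and 72.0 RPKM in the ARC and 52.7, 82.6, 65.7, 60.0 and 66.3 RPKM in the DMH. They ranged from 37.7 to 66.3 RPKM with a median of 52.6 in the VMH, and from 66.1 to 98.5 RPKM with a median of 78.6 in the PVN. Every fed ARC library lay above every fed VMH library. The order of the means was ARC (87.5 ± 10.6 RPKM, SD), PVN (81.8 ± 12.4), DMH (65.5 ± 11.1) and VMH (52.6 ± 9.37).

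The test across fed nuclei gave Psme1 a limma adjusted p of 0.00017. Against the mean of the other 3 nuclei, fed Psme1 was lower in the VMH by 0.56 ± 0.10 (log2, SE, limma adjusted p = 0.00019) and higher in the ARC by 0.42 ± 0.11 (limma adjusted p = 0.020). The ARC value lost the threshold without fed ARC replicate 1 (0.37, limma adjusted p = 0.118). Neither the DMH (-0.14, limma adjusted p = 0.883) nor the PVN (0.28, limma adjusted p = 0.141) differed from the others beyond the threshold. In fasted mice the VMH was again lowest, with a mean of 51.5 ± 9.60 RPKM in the VMH against 90.0 ± 12.1 in the ARC, 78.2 ± 6.81 in the DMH and 73.6 ± 11.2 in the PVN (test across nuclei, limma adjusted p = 0.00013). Its fasting change lay between -0.15 (PVN) and 0.26 (DMH), with a limma adjusted p of at least 0.864.

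Psme2 followed a like order, with 18.1 ± 2.71 RPKM in the fed ARC, 14.9 ± 2.201 in the PVN, 14.4 ± 5.51 in the DMH and 11.6 ± 4.97 in the VMH. It passed in fasted libraries (limma adjusted p = 0.010) and not in fed ones (limma adjusted p = 0.195). Over the 8 group means, which share mice, its Pearson correlation with Psme1 was 0.94. Psme2 shares 28.3% of its 50-base stretches with Psme2b or the pseudogene Gm7928, so part of its reads is uncertain. Psme4, the gene of the PA200 activator, passed in fasted libraries only (limma adjusted p = 0.033), from 6.92 ± 1.94 RPKM in the VMH to 10.5 ± 2.07 in the ARC. It lost the threshold without fasted VMH replicate 1 (adjusted p = 0.166) or fasted VMH replicate 4 (adjusted p = 0.112). The group means of Psme3, the nuclear PA28 subunit, lay between 36.4 and 49.4 RPKM in all 8 groups. Its single libraries ran from 16.9 to 78.2 RPKM, with a within-group SD of 0.41 log2 units. Psmb8 passed among fasted libraries (limma adjusted p = 0.013), from 3.73 ± 1.96 RPKM in the ARC to 0.623 ± 0.168 in the PVN.

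The stretches upstream of the RefSeq starts of Psme1 and Psme2 are shown because the levels of these genes varied together between nuclei. They are on GRCm38.p6, chromosome 14, printed 5′ to 3′ on the strand of the gene and limited to bases that no GENCODE exon covers. The Psme1 stretch is chr14:55578249-55578359 and lies within an intron of longer transcripts, and the Psme2 stretch is chr14:55591114-55591351. Capitals mark the GC box (GGGCGG or its reverse complement).
Psme1: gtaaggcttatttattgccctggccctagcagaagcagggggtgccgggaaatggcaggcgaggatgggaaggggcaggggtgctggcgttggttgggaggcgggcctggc
Psme2: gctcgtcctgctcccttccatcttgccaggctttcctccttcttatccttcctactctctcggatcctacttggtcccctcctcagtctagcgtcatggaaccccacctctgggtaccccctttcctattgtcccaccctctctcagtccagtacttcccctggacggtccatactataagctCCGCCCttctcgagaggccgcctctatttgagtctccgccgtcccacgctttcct
The Psme1 stretch holds none, while in the full 250 bases before the start both genes hold 1 GC box. RefSeq windows were matched for 42 of the 50 members, of which 22 (52.4%) held a GC box on either strand, against 35.4% of 27025 genes. A CCAAT box stood in 15 (35.7% against 37.5%), TGACNNNGC, the core of the antioxidant response element, in 5 including Psmb5 (11.9% against 11.5%), GAAANNGAA, the core of an interferon response motif, in 3 (7.14% against 8.18%) and TTCNNNGAA, a gamma activated site, in 2 including Psmb8 (4.76% against 8.13%). These are matches of letters in the window and not sites of binding.

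**Figure D4:**
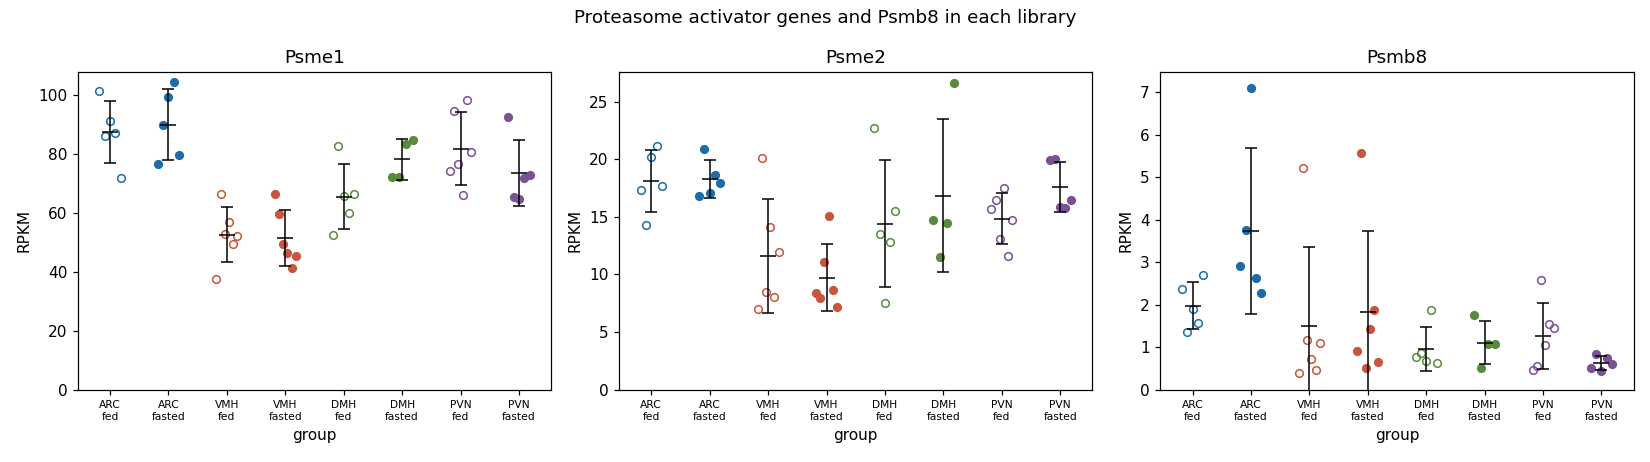
RPKM of Psme1, Psme2 and Psmb8 in each library by group (open circles fed, filled circles fasted), with the mean and SD as black bars, drawn from 0 (bars that would reach below 0 are clipped). Both PA28 genes are lowest in the VMH in either state, and Psmb8 is near 1 RPKM in most libraries outside the ARC.

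The PA28 genes were read beside genes of class I antigen processing. Of the 12 listed genes 11 were tested, and 4 passed across fed nuclei and 6 across fasted nuclei, against the background of 12.4% and 11.9% given above. Against the other nuclei, 5 of the 11 were lower in the fed VMH (background 4.57% lower), with a median of -0.39, and none was higher. Of genes with a mean of at least 5 RPKM, fitted alone, 18.66% passed in the fed VMH in either direction. B2m, the light chain of class I molecules, was lower there by 0.52 ± 0.17 (SE, limma adjusted p = 0.044), at 94.6 ± 22.0 RPKM against 165.2 ± 31.2 in the fed ARC. H2-D1, a class I heavy chain, was lower by 1.47 ± 0.19 (SE, limma adjusted p = 7.51e-07). Over the 8 group means Psme1 had a Pearson correlation of 0.87 with B2m, 0.85 with H2-D1, 0.79 with H2-K1, 0.62 with Tapbp, 0.41 with Psmb10, 0.40 with Psmb8 and 0.20 with Psmb9. Outside antigen processing it was 0.83 with Psme4, -0.15 with Psme3 and -0.26 with Psmb5. Cell type markers also differed between nuclei, though not all markers of a type went the same way. The summed level of 6 neuronal markers ranged from 1237 to 1457 RPKM in the fed VMH and from 617.9 to 669.4 RPKM in the fed ARC, and that of 6 oligodendrocyte markers from 208.9 to 336.1 and from 80.3 to 121.9 RPKM. Of the neuronal markers 4 passed as higher in the fed VMH against the other nuclei, while Stmn2 (0.09) and Tubb3 (-0.11) did not pass. The summed 8 microglial markers ranged from 44.6 to 87.9 RPKM in the fed VMH and from 59.3 to 95.6 in the fed ARC. Their signs in the fed VMH were split, with 4 positive (Trem2 0.50, C1qa -0.77). The 6 endothelial markers were highest in the fed PVN (63.4 to 92.7 RPKM), with 27.5 to 68.1 in the VMH and 23.9 to 35.9 in the ARC. No no-read value was set for these markers, because their lowest values did not recur within every batch. Whether single libraries lacked reads of a marker cannot be told from this. The part of these markers in the result was not tested.

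Each fed nucleus was also set against the other 3. In the PVN 4 members were higher (background 3.18% upward, and 1 to 5 members with single libraries left out), 1 was higher in the ARC (Psme1, background 2.38%), 1 was higher and 2 were lower in the VMH (background 5.25% and 4.57%) and none passed in the DMH (0 of 50 in limma at an adjusted p under 0.1, background 2.34%, and 5 at an unadjusted p under 0.05, background 10.7%). When only genes with a mean of at least 5 RPKM were fitted, the shares passing in either direction were higher. They were 10.75% (PVN), 9.46% (ARC), 18.66% (VMH) and 3.63% (DMH) of those genes. The order of the member counts changed with single libraries left out, and the VMH count ran from 2 to 5. The PVN genes were the ATPases Psmc5 and Psmc6, the lid deubiquitinase Psmd14 and the alpha subunit Psma7. Psmc5 ranged from 173.8 to 212.4 RPKM with a median of 180.5 in the fed PVN, above all 5 fed ARC libraries (153.2, 158.5, 147.7, 160.6 and 130.0 RPKM). It overlapped the fed DMH (139.5 to 201.2 RPKM) and the fed VMH (124.3 to 180.8 RPKM). It was higher than in the other nuclei by 0.28 ± 0.07 (SE, limma adjusted p = 0.018). Psmd14 read 42.9 ± 7.14 RPKM in the fed PVN (SD, n = 6) against 30.2 ± 2.83 in the DMH, a difference from the other nuclei of 0.38 ± 0.10 (SE, limma adjusted p = 0.022). It missed the threshold without fed PVN replicate 3 (adjusted p = 0.107).

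Psma7 was higher in the fed PVN by 0.35 ± 0.11 (SE, limma adjusted p = 0.057) and Psmc6 by 0.48 ± 0.16 (limma adjusted p = 0.084). Psma7 lost the threshold without fed PVN replicates 1, 3, 5 or 6, left out in turn (adjusted p from 0.1005 to 0.162). Psmc6 lost it in 11 of 42 such fits, without fed PVN replicates 1, 3, 4 or 6, fed ARC replicates 1 or 5, fed DMH replicates 2 or 5, or fed VMH replicates 4, 5 or 6 (adjusted p up to 0.272). In the fed VMH, the beta subunit Psmb1 was lower by 0.38 ± 0.11 (SE, limma adjusted p = 0.021), at 62.0 ± 9.08 RPKM against 86.5 ± 14.4 in the PVN, and lost the threshold without fed VMH replicate 4 (adjusted p = 0.120). The base chaperone Psmd5 was higher there by 0.39 ± 0.14 (SE, limma adjusted p = 0.076). Psmd5 lost the threshold without fed VMH replicates 1, 3 or 4, fed ARC replicates 1 or 3, fed DMH replicates 1 or 4, or fed PVN replicate 2 (adjusted p up to 0.292).

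Psmb11 also passed across fed nuclei (limma adjusted p = 0.036), from 1.09 ± 0.06 RPKM in the ARC to 1.78 ± 0.62 in the VMH, with 24.5 reads in the median library. The other members of the fed test were Psmd14 (limma adjusted p = 0.040), Psmc5 (0.042), Psmb1 (0.068) and Psma5 (0.081). Psmc5 lost the threshold without fed PVN replicate 5 (adjusted p = 0.150), Psmd14 without fed PVN replicate 3 or 4 (0.138 and 0.129), and Psmb1 without fed VMH replicates 1, 4 or 5 or fed PVN replicates 2 or 6 (up to 0.245). Psma5, an alpha subunit, lost it in 13 of 42 fits, without fed ARC replicates 1, 2 or 5, fed DMH replicates 3, 4 or 5, fed PVN replicates 1, 3, 4 or 6, or fed VMH replicates 1, 4 or 6 (adjusted p up to 0.145).

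The balance of inducible and constitutive catalytic subunits was read as the log2 ratio of their RPKM + 1 in each library, a scale that shrinks differences of low genes such as Psmb8 and Psmb9. Psmb8 to Psmb5 was -4.72 ± 0.39 in fed and -3.85 ± 0.74 in fasted ARC libraries (SD, n = 5 each), a difference of 0.87 with an exact permutation p of 0.048 (two-sided) and 0.571 after adjustment over the 12 ratios compared. Psmb8 read 2.36, 1.36, 1.90, 1.56 and 2.69 RPKM in the fed ARC and 2.92, 3.75, 7.10, 2.63 and 2.27 RPKM in the fasted ARC. The groups overlapped. The other 11 differences lay between -0.27 and 0.62 and had adjusted exact permutation p-values of at least 0.762. The highest, Psmb8 to Psmb5 in the VMH, was 0.31 without fasted VMH replicate 2. Psmb8 and Psmb9 lie 9956 bases apart on chromosome 17. Psmb9 overlaps Tap1 over 5.79% of its exon length, and Psmb8 overlaps Gm20496 over 14.7%. With unstranded reads, Psmb9 can share counts with Tap1 and Psmb8 with Gm20496.

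Genes that work with the proteasome but carry another name were read for fasting too. None passed in any nucleus among 10 matched partners and subunits without the prefix (of 11 listed), 5 genes that control subunit expression, 15 ubiquitin and delivery genes, 1 tested of 2 ligases known from muscle atrophy, and 11 tested antigen processing genes. The lowest p belonged to Ube3c, a ligase bound to the 19S particle, at -0.56 ± 0.15 in the ARC (SE, limma adjusted p = 0.263), and it was also negative in the PVN (-0.39 ± 0.14, limma adjusted p = 0.706). Uba6, a ubiquitin-activating enzyme, lay at -0.41 ± 0.14 in the VMH (SE, limma adjusted p = 0.364). The other listed genes with the smallest unadjusted p-values were Ubqln2 in the ARC (0.38 ± 0.14, limma adjusted p = 0.569), Ubqln1 in the VMH (-0.20 ± 0.10, limma adjusted p = 0.617), Ufd1 and Tap2 in the DMH (0.43 ± 0.17 and 0.46 ± 0.20, limma adjusted p = 0.634 and 0.715) and Zfand5 in the PVN (0.36 ± 0.15, limma adjusted p = 0.850). Fbxo32 (atrogin-1) lay at 0.23, -0.09, -0.38 and -0.34 in the ARC, VMH, DMH and PVN, with a limma adjusted p of 1 in each. Nfe2l1, the transcription factor that raises subunit genes when the proteasome is inhibited, lay at 0.06, -0.17, 0.26 and 0.16, with none past the threshold. Between fed nuclei, 3 of the 10 partners, 1 of the 5 control genes and 2 of the 15 ubiquitin genes passed, where 12.4% of all genes did. Vcp, the ATPase that extracts ubiquitinated proteins, was lower in the fed VMH by 0.33 ± 0.06 and higher in the fed PVN by 0.31 ± 0.06 (SE, limma adjusted p = 8.59e-05 and 0.00043), at 35.4 ± 3.41 and 49.7 ± 3.93 RPKM. Rps27a, which encodes a ubiquitin fusion, was lowest in the fed VMH (18.3 ± 2.18 RPKM against 35.7 ± 1.23 in the ARC).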

How the data were processed

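The members and gene lists were chosen with earlier results of these data known. Per the labels, the authors' processing notes list CASAVA 1.7, TopHat2 2.0.11, Cufflinks 2.2.1, edgeR and limma on GRCm38. The authors deposited RPKM values for 37907 Ensembl gene IDs in 42 libraries, normalized to gene length and library size. No value was 0, and the lowest value of a gene recurred among 10, 16 and 16 libraries, which were taken as the 3 batches, with an added count of 5 reads in the mean library and batch means removed before deposit. Low values lay a whole number of reads (within 0.05) above it for 97.8% to 98.9% of values. Depths and reads per gene were estimated from this and from exon length. For low genes the reads are rough: Psma8 came out at 2.685 reads in the median library, although 27 libraries sat at its no-read value.

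Because the values are RPKM, the count model of the study was replaced by limma 3.58.1 in R 4.3.3. Genes that reached 1 RPKM in at least 4 libraries were kept (33579). Some of these had almost no reads: Psmb5-ps, at its no-read value in 40 libraries, never fell below 1.366 RPKM. The shares and medians over all genes include such genes. Then log2(RPKM + 1) was fitted with a mean for each of the 8 groups and an intensity trend. Fold changes are on that scale, which understates changes of low genes. P-values are two-sided, adjusted by Benjamini-Hochberg over all genes, and called under 0.1. The test was checked on simulated independent values for the ARC fasting comparison only. These held no shared mice and no batches, so the check does not cover them. Ratios used exact permutation tests. Per the study's methods, the libraries of a group are biological replicates, and the labels do not name their mice. Named genes were the members with the 3 smallest fasting p-values in each nucleus, those past the threshold across nuclei, the extremes in level or spread of each role, and the immunoproteasome and activator genes, and further members were named after their values were seen. Alternatives changed the pseudocount (0.1), the filter (none, or a mean of at least 5 RPKM), centring, library weights, covariates (batch, depth), the libraries fitted, the call rule and each library. Symbols, positions and overlaps came from GENCODE M21, and promoters from RefSeq (GRCm38.p6).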

Additional observations from a re-analysis of the deposited data

Results flagged for a closer look

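Over the 36 named members, some of them named for their spread, and the 8 groups, there were 288 combinations. In 31 of them 1 library stood far from the others of its group (Dixon's test at the 95% level). A rate of 1 in 20 would give about 14.4, which assumes independent, normally distributed values. Nuclei share mice and low genes such as Psma8 sit at a no-read value, so no excess over chance is read from this. The 31 lay in 20 of the 42 libraries, and 8 libraries were flagged more than once. No difference between groups was flagged.

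The assembly chaperones held the widest gaps. Psmg3 read 43.83 RPKM in fed DMH replicate 3, with the other fed DMH libraries between 3.65 and 7.06. Psmg2 read 40.1 RPKM in fasted DMH replicate 2, 33.33 in fasted PVN replicate 1 and 18.7 in fed DMH replicate 5. Psmg1 read 38.52 RPKM in fasted VMH replicate 2, with the others between 7.67 and 17.0. Psmd9 was low at 0.5673 RPKM in fed PVN replicate 2, with the others between 3.82 and 5.62.

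Among low inducible, tissue-restricted and copied genes, Psmb8 read 5.202 RPKM in fed VMH replicate 2, 5.571 in fasted VMH replicate 2 and 1.874 in fed DMH replicate 4. Psmb9 read 3.58 RPKM in fed ARC replicate 3 and 1.862 in fed VMH replicate 6. Psma8 read 2.987 RPKM in fed ARC replicate 4 and 4.064 in fed VMH replicate 2, and Psmb11 read 2.354 in fasted VMH replicate 2. Psme2b read 2.566 RPKM in fed ARC replicate 2 and 3.379 in fed DMH replicate 5. Psmc3ip read 4.41 RPKM in fasted ARC replicate 1 and 8.26 in fed PVN replicate 2.

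Among abundant genes, Psmc5 read 120.4 RPKM in fasted VMH replicate 2 and 212.4 in fed PVN replicate 5, and Psmc4 28.55 in fasted PVN replicate 3. The activator Psme3 read 58.46 RPKM in fed ARC replicate 2, 50.38 in fasted ARC replicate 1 and 78.24 in fasted PVN replicate 1. The 19S genes Psmd1 (39.64 in fasted DMH replicate 4), Psmd4 (26.63 in fasted ARC replicate 1), Psmd7 (116.9 in fed ARC replicate 1) and Psmd14 (48.21 in fed ARC replicate 3) had 1 library apart. Psmd13 read 15.01 RPKM in fed VMH replicate 4 and 17.44 in fed PVN replicate 1, and the regulator Psmf1 4.734 in fasted ARC replicate 5.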

How the results depend on the processing

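No member passed the adjusted threshold for fasting or its interaction in any alternative that kept that threshold, with 42 fits that each left out 1 library included. At an unadjusted p under 0.05 the fasting counts were 3 (ARC), 1 (VMH) and 3 (PVN), the counts across nuclei 12 (fed, 18.8% of all genes) and 9 (fasted, 19.3%), and those of a fed nucleus against the others 8 (ARC, 12.4% of all genes), 7 (VMH, 17.5%), 5 (DMH, 10.7%) and 12 (PVN, 13.0%). The ARC count against the others was 2 in place of 1 with a mean of at least 5 RPKM, with library weights and with only the groups compared. Library weights gave 10 across fed nuclei in place of 6 (13.9% of all genes), and 7 for the PVN in place of 4 (8.18% of all genes). With depth as a covariate the counts were lower, at 4 across fed and 3 across fasted nuclei. Single calls were lost in some alternatives. Across fed nuclei Psmc5 was lost with only the groups compared (limma adjusted p = 0.127), Psmb1 there and with depth as a covariate (0.241 and 0.135), and Psma5 in both and with the batch covariate or the replicate block (0.107 to 0.175). Across fasted nuclei Psme4 was lost with depth as a covariate and with only the groups compared (0.1075 and 0.123). Against the others, Psmc6 in the PVN was lost with the batch or depth covariate (up to 0.109) and Psmd5 in the VMH with only the groups compared (0.138). Leaving out single libraries, these counts ranged from 4 to 8 across fed nuclei and 3 to 6 across fasted nuclei. Against the others they ranged from 1 to 2 in the ARC (2 without fed DMH replicate 1 or 2, fed PVN replicate 1, fed VMH replicate 4 or fasted VMH replicate 2), 2 to 5 in the VMH (5 without fed PVN replicate 5 or fed VMH replicate 2) and 1 to 5 in the PVN (1 without fed PVN replicate 3, 2 without replicate 1 or 6). The cause was not tested.

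The Psmb8 to Psmb5 difference in the PVN reversed to -0.2999 with a pseudocount of 0.1 and ranged from -0.1117 to 0.1577 with single libraries left out. Others that changed sign in this way were Psmb8 to Psmb5 in the DMH (-0.0598 to 0.266), Psmb9 to Psmb6 in the ARC (-0.4555 to 0.09132) and DMH (-0.4259 to 0.04126), and Psmb10 to Psmb7 in the DMH (-0.1069 to 0.1614) and PVN (-0.4168 to 0.06283). In the VMH the differences kept their sign but ranged from 0.3127 to 0.9338 (Psmb8 to Psmb5), 0.07483 to 0.6817 (Psmb10 to Psmb7) and 0.01526 to 0.4596 (Psmb9 to Psmb6, 0.6412 with a pseudocount of 0.1). None of the ratios passed a test.

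Replicate numbers showed no pairing of fed with fasted libraries of a nucleus. Over 20 such pairs with a shared number the correlation of deviations ran from -0.121 to 0.0544, and none was over 0.1. Of these pairs 16 shared an inferred batch, where removed batch means can lower the correlation, so the check cannot decide. Whether the numbers link nuclei of the same brain was not tested. With the replicate block 6 members passed across fed nuclei and 5 across fasted nuclei, and 0 changed with fasting in any nucleus. The median library held 18.6 reads of Psmg4 and 4.96 of Psmb9.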
